A study of Arabidopsis thaliana with 4 samples.

Results

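Leaf DNA of wild-type Arabidopsis thaliana, accession Columbia (Col-0), was read at single-cytosine resolution by enzymatic methyl-seq, in which methylated cytosines are protected by enzymes and unmethylated ones are deaminated and read as T. The library was the only one of 4 in the series whose genotype label was wild type. The other libraries, 1 each, carried the genotypes ccr4a ccr4b and ddm1 rdr2 and the quadruple mutant genotype ccr4a ccr4b ddm1 rdr2, all in leaves of 6-week-old plants of the same accession grown in long days on soil. The labels do not say how many plants or leaves entered a library. With 1 library per genotype there was no replicate, so the values below describe this library, and no spread between plants can be given. A DNA library holds no marker of tissue, and the label leaf was not tested.

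Plants methylate cytosines in the sequence contexts CG, CHG and CHH, where H is A, C or T. MET1 copies CG methylation onto the new strand after replication. CMT3 maintains CHG methylation in a loop with methylation of lysine on histone H3. CHH methylation cannot be copied from the facing strand and is laid down by CMT2 in heterochromatin and by DRM2 through the small RNA pathway, in which RDR2 makes double-stranded RNA. DDM1 is a chromatin remodeller needed for methylation of heterochromatin, and CCR4A and CCR4B are deadenylases that shorten poly(A) tails. In Arabidopsis, many expressed genes carry CG methylation alone, while transposons and repeats usually carry all 3 contexts.

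The methylated states found in this library are shown first as sequence, since the states differ in which cytosines of a stretch were methylated. Each line is the + strand, 5′ to 3′, recovered from the trinucleotide given for every cytosine on the build of the deposited files (ColCEN). Capitals mark cytosines called methylated, C for a cytosine of the strand shown and G for a cytosine of the facing strand. The stretches were chosen after their values were seen, as the longest within a limit of 120 bases, which all 3 reach. In each, every base is fixed by the files, the stretch meets its state by itself, and every cytosine has at least 10 calls. Other stretches may reach this limit too, so these are examples.
CG only, Chr1:11425815-11425934: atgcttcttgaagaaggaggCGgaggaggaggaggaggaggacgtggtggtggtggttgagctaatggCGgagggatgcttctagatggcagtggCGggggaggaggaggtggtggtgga
CG and CHG, Chr4:7126829-7126948: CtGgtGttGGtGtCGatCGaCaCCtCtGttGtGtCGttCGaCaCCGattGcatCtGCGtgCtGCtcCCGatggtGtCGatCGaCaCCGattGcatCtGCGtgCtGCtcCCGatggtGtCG
All 3 contexts, Chr1:12041432-12041551: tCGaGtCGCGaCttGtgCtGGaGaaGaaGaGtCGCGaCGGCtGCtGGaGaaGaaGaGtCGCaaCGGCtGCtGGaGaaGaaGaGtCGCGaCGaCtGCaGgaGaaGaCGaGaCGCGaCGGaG

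In the CG only stretch, on an arm of chromosome 1, 6 of 73 cytosines were called methylated, and all 6 were CG. Its mean level was 60.1% in CG, 1.23% in CHG and 0.0282% in CHH, at a median of 47 calls. The 3 methylated CG dyads had 40 of 62, 45 of 61 and 46 of 56 methylated calls on the + strand, and 10 of 13, 43 of 46 and 45 of 50 on the - strand. The dyad at position 43 of the stretch, within the letters ACGT, had 0 of 59 and 0 of 34 methylated calls, which allows a level of up to 5.08% and 8.82%. Methylated and unmethylated CG thus stood within 30 bases of each other, on both strands alike.

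In the CG and CHG stretch, in the pericentromere (within 2 Mb of the centromeric satellite array) of chromosome 4, 59 of 70 cytosines were called methylated, including all 26 CG and all 16 CHG. Its level was 89.3% in CG, 31.4% in CHG and 8.48% in CHH. In the stretch methylated in all 3 contexts, on an arm of chromosome 1, the calls covered all 30 CG, all 17 CHG and 23 of 25 CHH. Its level was 82.2% in CG, 53.8% in CHG and 20.9% in CHH. CG levels were thus high in all 3 stretches, while CHG and CHH levels set them apart, which is how the states are defined below.

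The longest unmethylated run of the genome, Chr3:24785801-24796800, is the contrast. One stretch of it, chosen by a rule on position and coverage and not on level, had 1 called cytosine among 57, in capitals:
Unmethylated, Chr3:24789899-24789970: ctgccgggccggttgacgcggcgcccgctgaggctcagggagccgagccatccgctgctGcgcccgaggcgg
This stretch has 22 CG cytosines, with a mean level of 0.0561%, so that a high density of CG went with almost no methylation here.

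The files list 47652272 nuclear cytosines, of which 29535283, or 62.0%, had at least 4 calls and were analysed, with a median of 16 calls and quartiles of 8 and 34. Coverage followed base composition. Cytosines in 200 bp bins of 30% to 35% GC had 3.45 calls on average, and those in bins of 50% GC or more had 70.7. Satellite windows of the centromeres had 27.6% of their cytosines analysed, against 63.8% on the arms and 72.6% in the pericentromere, so AT-rich and satellite sequence is under-represented in every value here. The 9.26% of cytosines with over 3 times the median calls held 45.0% of all nuclear calls.

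The chloroplast genome, taken as unmethylated and so as a measure of failed conversion and miscalls, had 51477204 calls. Its methylated share was 0.0861% in CG (Wilson 95% interval 0.0841% to 0.0880%), 0.0918% in CHG (0.0897% to 0.0939%) and 0.0782% in CHH (0.0773% to 0.0792%). Intervals here and below cover counting error only, since PCR copies are not independent molecules. Among the 16 trinucleotides the chloroplast share ran from 0.0648% at CCC to 0.0951% at CTG. The background was therefore close to 0.1% in every sequence class, far below the differences between trinucleotides reported below. In the other libraries the chloroplast share over all contexts was 0.104% for ccr4a ccr4b, 0.0907% for ddm1 rdr2 and 0.0801% for the quadruple mutant.

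CG methylation was closer to a switch than CHG methylation, which was graded, and CHH methylation was low at most sites. The mean level over single nuclear cytosines was 30.5% in CG, 9.87% in CHG and 3.73% in CHH. When calls were pooled, so that deep cytosines counted more, the shares were 36.6% (36.6% to 36.6%), 14.8% (14.8% to 14.8%) and 5.03% (5.03% to 5.03%). Of the CG cytosines, 60.4% had no methylated call, 23.4% had a level of 80% or more, and 14.3% lay from 20% to 80%. Of the CHG cytosines, 77.3% had no methylated call, and only 2.15% reached 80% while 15.5% lay between. Of the CHH cytosines, 83.7% had no methylated call and 0.327% reached 80%.

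A one-sided binomial test of each cytosine against the chloroplast share of its context, with Benjamini-Hochberg adjustment and an adjusted p under 0.01, called 1648402 CG cytosines methylated, which is 38.4% of those tested. It called 949261 CHG cytosines, 20.6%, and 2477830 CHH cytosines, 12.0%. CHH thus made up 48.8% of the 5075493 methylated cytosines, more than CG with 32.5%, although the typical methylated CHH was only partly methylated. The median level of called cytosines was 83.3% in CG (quartiles 72.9% and 91.2%), 46.4% in CHG (27.3% and 66.3%) and 22.9% in CHH (11.1% and 40.3%). In data simulated at these depths the test recovered 99.8% of CG cytosines at a level of 80%, 93.1% of CHG at 40% and 71.5% of CHH at 20%, so lowly methylated CHH is undercounted. The test treats calls as independent and covers counting error in 1 library, not variation between plants.

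**Figure D1:**
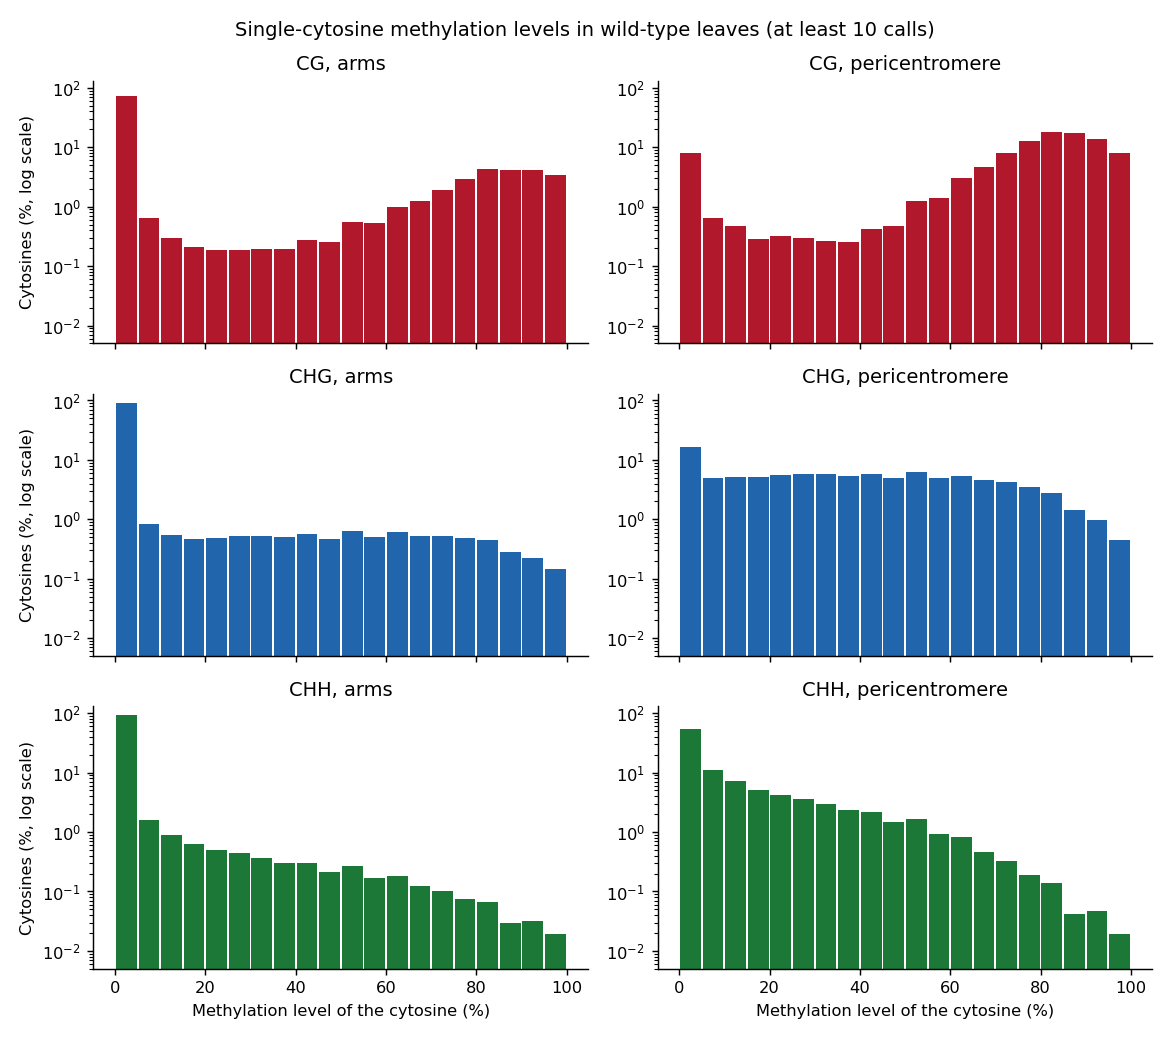
Percentage of cytosines (y, log scale) by methylation level in steps of 5 points (x), for CG, CHG and CHH in chromosome arms and in the pericentromere, at cytosines with at least 10 calls. CG has a peak at 0 to 5% and another from 80%, CHG in the pericentromere has 16.6% of cytosines at 0 to 5% and 4.62% to 6.36% in each step from 5% to 70%, and CHH declines from 0 in both regions.

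The shape of these distributions depended on the region. In the pericentromere 18.4% of CG cytosines with at least 10 calls lay from 80% to 85%, and 0.465% from 45% to 50%. CHG in the same place had no such gap, with 5.87% of cytosines from 40% to 45% and 2.83% from 80% to 85%. On the arms 73.3% of CG, 90.7% of CHG and 93.7% of CHH cytosines lay under 5%. The 2 classes of CG were therefore present in both regions in different proportions, while intermediate CHG was more frequent in the pericentromere, where 58.4% of all analysed CHG lay from 20% to 80%, against 5.42% on the arms.

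Along the chromosomes, methylation in all 3 contexts was concentrated around the centromeres. The mean CG level was 72.3% in the pericentromere and 18.9% on the arms, that of CHG was 35.2% and 3.88%, and that of CHH was 10.7% and 1.62%. Over the 5 chromosomes the pericentromeric CG level ran from 69.7% to 76.5% and the arm level from 17.6% to 22.5%, so the ranges did not overlap. Arms of chromosome 2 were the highest of the arms in all 3 contexts, at 22.5%, 5.81% and 2.25%. Inside the spans of the arrays, satellite windows had 71.7% CG, 30.3% CHG and 8.41% CHH, and the other windows had 79.1%, 47.0% and 14.0%. The satellite, built of copies 178 bp long, was thus below its interspersed sequence in every context, at mean depths of 2.57 and 21.2 calls per listed cytosine.

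With distance from the array, CG methylation was flat at first and then declined steeply. Its mean over all chromosomes was 75.7% within 0.5 Mb, 76.9% from 0.5 to 1 Mb, 63.2% from 1.5 to 2 Mb, 43.2% from 2 to 3 Mb and 27.4% from 3 to 4 Mb. From 10 to 20 Mb it was 12.5%, and the 5 chromosomes lay from 11.6% to 13.4%. CHG was 38.7% within 0.5 Mb and 0.974% from 10 to 20 Mb, and CHH was 11.6% and 0.531%. Relative to its own level near the array, CG therefore persisted most on the distal arms.

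**Figure D2:**
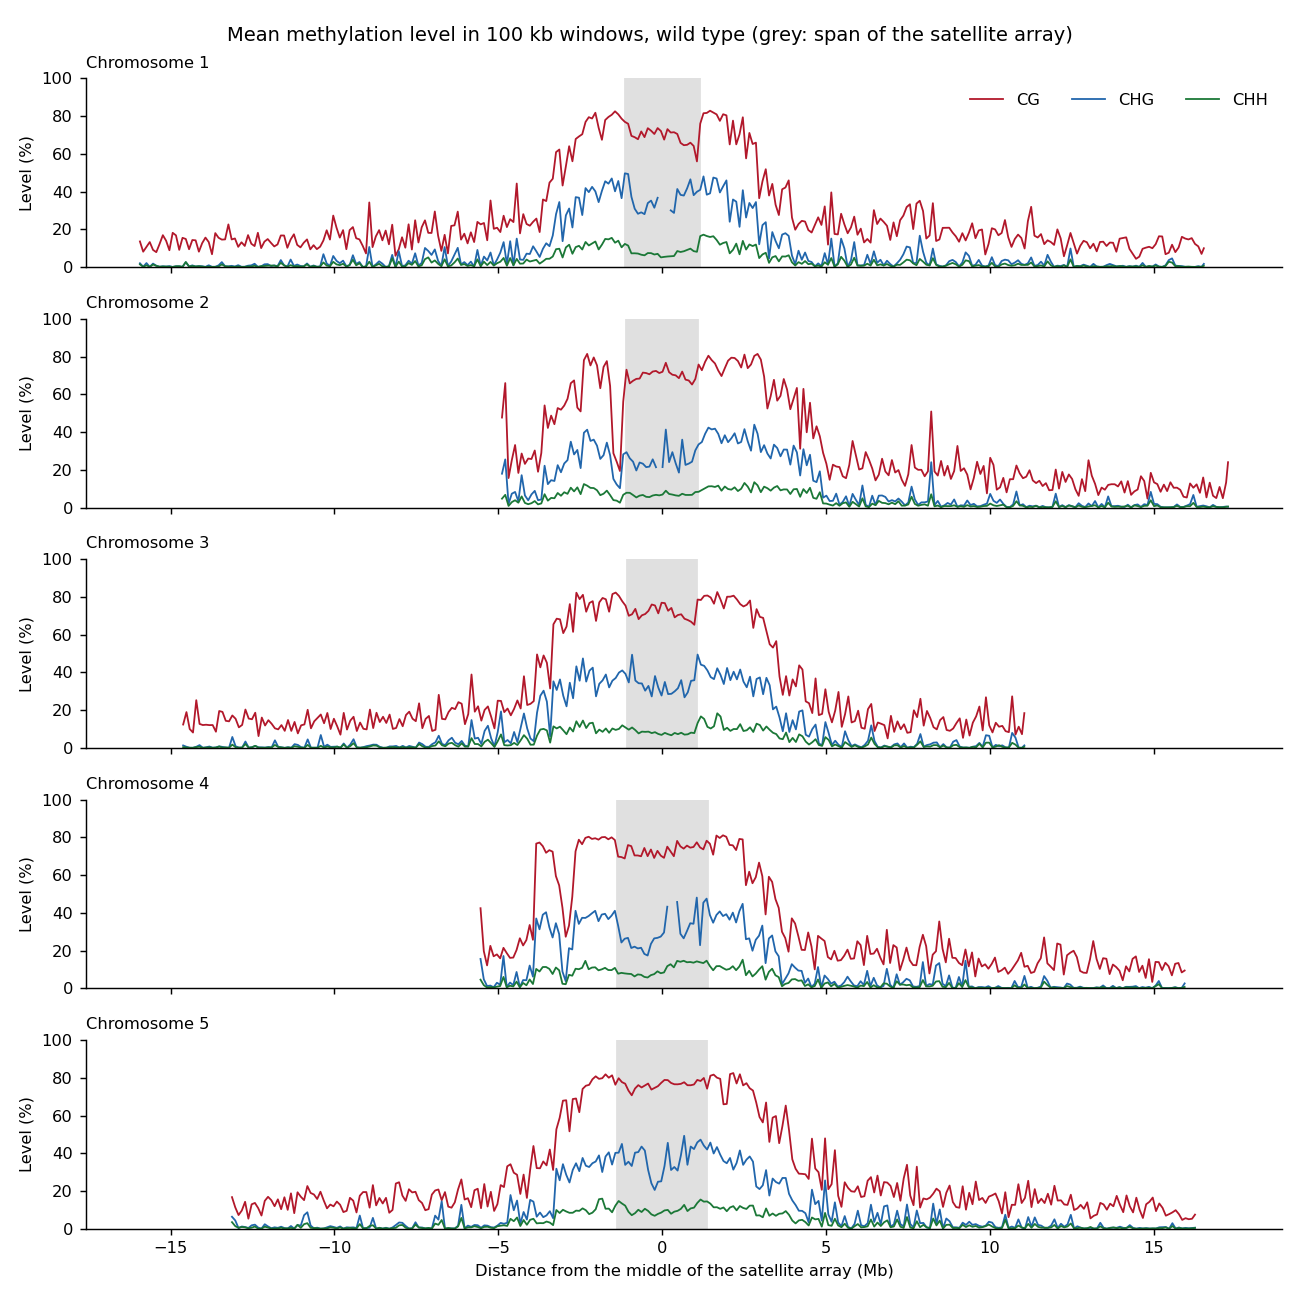
Mean level of CG, CHG and CHH cytosines (y, %) in 100 kb windows by distance from the middle of the satellite array (x, Mb) on each chromosome, with the span of the array in grey; windows with fewer than 200 cytosines of a context are left out of its line. Levels are high around every array, dip within the grey span in CG, and show a separate block left of the array on chromosome 4 and a gap left of the array on chromosome 2.

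Of 1318 windows of 100 kb, 345, or 26.2%, had a CG level of 50% or more, and 187 of the 200 windows within 2 Mb of an array did. Outside the arrays the highest window of each chromosome had a CG level of 81.1% to 82.9%. That of chromosome 1, Chr1:17400001-17500000, had 82.9% CG, 39.1% CHG and 15.9% CHH. That of chromosome 3, Chr3:16300001-16400000, had 82.6% CG and the highest CHH level of any window, 18.4%. The lowest windows lay at 3.41% to 5.07% CG, and all of them were over 5 Mb from the array. The lowest, Chr4:20500001-20600000, had 3.41% CG, 0.0833% CHG and 0.0482% CHH, the last 2 under the chloroplast shares of their contexts. No 100 kb window was free of CG methylation, although CHG and CHH reached the background.

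Windows that stood apart from the gradient were singled out after their values were seen. Over 2 Mb from the array the median window had 16.2% CG, yet 33 of 993 windows had 50% or more. Most of the 33 lay from 2 to 3 Mb, and the farthest at 7.06 Mb. From 2 to 3 Mb the mean CG level was 43.2%, and that of the highest chromosome was 49.6%, so most of the 33 stood less far apart than the median implies. On chromosome 4 the 5 windows of Chr4:1700001-2200000, 2 to 2.4 Mb from the array, had 71.9% to 77.3% CG and 31.3% to 40.3% CHG. On chromosome 2, Chr2:100001-200000 had 65.9% CG and 25.5% CHG near the chromosome end. The reverse was seen in the pericentromere of Chr2, where the windows starting at 3400001, 3500001 and 3600001 had 28.8%, 24.3% and 19.3% CG and 15.2%, 12.2% and 10.2% CHG. In these 3 windows 198, 234 and 189 bins of 200 bp were unmethylated, and 29, 21 and 13 were methylated in all 3 contexts. The pooled share of calls in the pericentromere of chromosome 2 was 56.1% in CG against a mean over cytosines of 69.7%, whereas on the other 4 chromosomes the pooled share was the higher. In CG, deep cytosines were thus less methylated than shallow ones in the pericentromere of chromosome 2 and not in that of the other 4. The parts of depth and of read placement in these values and in the 3 windows above were not tested.

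Next the 3 contexts were read together in bins of 200 bp. A bin was assessed with at least 2 CG, 2 CHG and 4 CHH cytosines analysed, and a context counted as methylated from a mean level of 30% in CG, 20% in CHG and 10% in CHH. Of 657801 bins, 395401, or 60.1%, were assessed, and they were richer in GC than the rest, at 39.8% against 30.9%. Of the 8 possible states, 4 held nearly all bins: unmethylated 230570 (58.3%), CG only 73608 (18.6%), all 3 contexts 59085 (14.9%) and CG and CHG 27951 (7.07%). The thresholds cut through continuous values. For CG, 2893 bins lay from 27% to 30% and 2870 from 30% to 33%, and for CHH, 6668 lay from 9% to 10% and 6789 from 10% to 11%. Bins methylated in CG and CHG had a mean CHH level of 6.87%, and the last 2 counts depended on the thresholds: at 20%, 10% and 5% there were 87743 bins methylated in all 3 contexts and 9358 in CG and CHG, and at 50%, 30% and 15% the order was the reverse, with 27743 and 43062.

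Non-CG methylation was almost never found without CG methylation. Of 91223 bins with CHG or CHH methylated, 90369, or 99.1%, had CG methylated too. The reverse did not hold, since only 28.4% of CG-methylated bins on the arms, and 86.7% in the pericentromere, had CHG or CHH methylated. The bins without CG numbered 854, of which 636 were on the arms. Many were near the limits: of 231 CHG only bins 122 had a CG level of at least 20%, and of 366 CHH only bins 84 did, while 141 CHH only bins had a CG level under 5%.

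The regions differed in their mixture of states. On the arms 71.9% of bins were unmethylated, 19.9% CG only and 5.96% methylated in all 3 contexts. In the pericentromere 51.0% were methylated in all 3 contexts, 23.7% in CG and CHG and 11.8% in CG only, and the remaining common state, unmethylated, took 11.03%. In satellite windows the commonest state was CG and CHG with 42.7%, then CG only with 26.1%, and 0.435% of bins were unmethylated. In the other windows of the spans 76.8% were methylated in all 3 contexts. Only 25.3% of the satellite bins could be assessed.

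Bins of the same CG level carried different amounts of CHG methylation by region. At a CG level of 60% to 70% the mean CHG level was 6.15% in 12057 arm bins and 31.0% in 4132 pericentromeric bins, and a CHG level of 20% or more was reached by 12.3% and 70.3% of them. At a CG level of 80% to 90% the CHG means were 28.9% and 39.7%, and the CHH means were 10.5% and 12.3%. The gap between the regions was thus widest at intermediate CG levels, as the lines of non-CG level by CG level show.

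**Figure D3:**
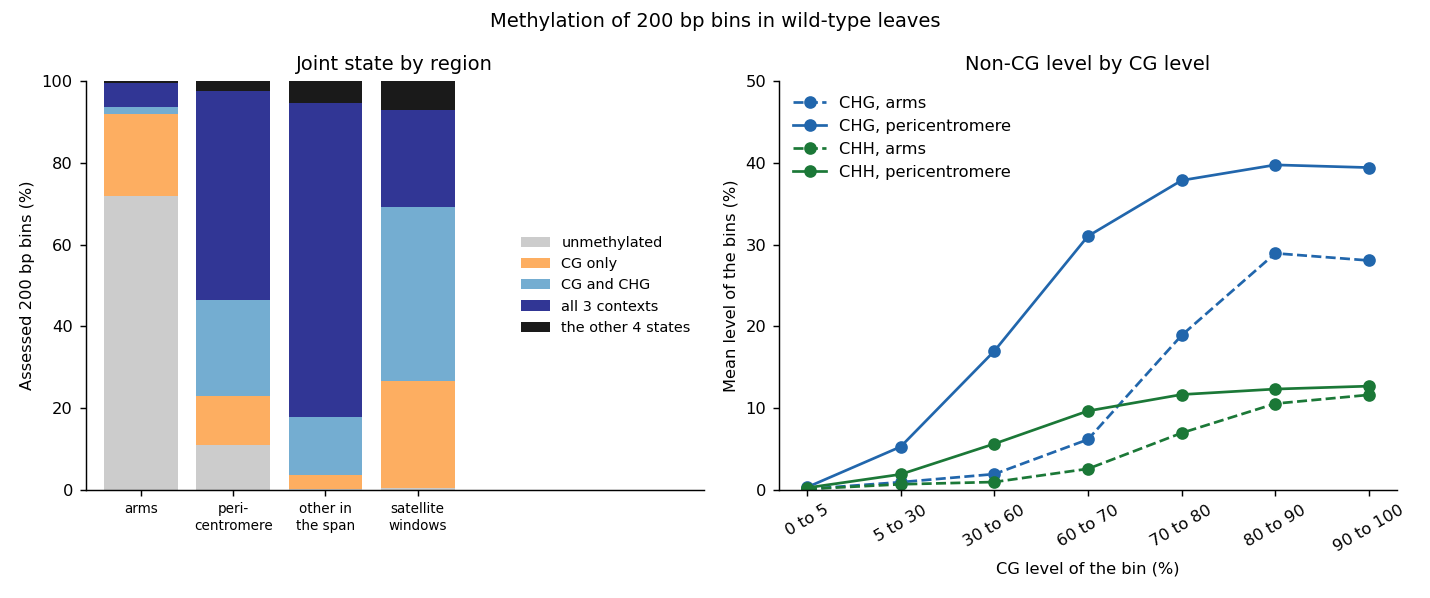
Left, percentage of assessed 200 bp bins in each joint state (stacked bars) in arms, pericentromere and both kinds of window in the array span; right, mean CHG and CHH level of bins (y, %) by their CG level (x, %) in arms (dashed) and pericentromere (solid). Arms are mostly unmethylated or CG only, the pericentromere is mostly methylated in all 3 contexts, and CHG at CG levels of 60% to 70% is 6.15% on the arms and 31.0% in the pericentromere.

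CG only bins were mixtures of methylated and unmethylated CG to a larger degree than bins methylated in all 3 contexts. Of their CG cytosines 49.2% were at 80% or more and 21.9% under 20%, with a median of 79.2%. Shares and medians of cytosines in this paragraph are for those with at least 10 calls, and bin means for those with at least 4. Where all 3 contexts were methylated 66.2% were at 80% or more and 0.390% under 20%, with a median of 84.0%. The lower mean of CG only bins, 63.2% against 81.1%, therefore went with a class of unmethylated CG within them, as in the sequence shown above. Where all 3 contexts were methylated 75.4% of CHG cytosines lay from 20% to 80%, and 68.6% of CHH cytosines were under 20%.

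States came in runs. Where the next bin was assessed too, it had the same state after 88.7% of unmethylated bins, 79.9% of bins methylated in all 3 contexts, 62.4% of CG only bins and 49.1% of CG and CHG bins. Unmethylated bins followed 30.4% of CG only bins, and bins methylated in all 3 contexts followed 1.81%. CG and CHG bins were followed by bins methylated in all 3 contexts in 32.5% and by CG only bins in 14.5%. CG and CHG bins thus lay most often among themselves or beside bins with CHH, and rarely beside unmethylated ones, at 1.29%.

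Outside the array spans, the longest run of each state shows its extremes. The longest run methylated in all 3 contexts, Chr3:15885601-15914200, covered 28600 bp of pericentromere with 78.0% CG, 41.8% CHG and 19.3% CHH. The longest CG only run, Chr1:23028001-23035600, covered 7600 bp of arm with 71.1% CG, 0.134% CHG and 0.0553% CHH. Over its 348 CG cytosines this run carried dense CG methylation with non-CG levels at the chloroplast background. The longest CG and CHG run, Chr4:3363001-3366800, covered 3800 bp with 79.4% CG, 32.0% CHG and 7.66% CHH. The longest unmethylated run, 11000 bp long, had 0.104% CG over 1243 cytosines.

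One short run had CHH methylation alone. In Chr5:2865601-2866000, on an arm, 71 CHH cytosines had a mean level of 35.8%, while none of 384 calls at 19 CG cytosines and none of 363 calls at 16 CHG cytosines was methylated. These counts of 0 allow up to 0.781% and 0.826%. The ccr4a ccr4b library, read at the same place, had 36.6% CHH and 6.23% CG, with 235 of 644 and 7 of 223 calls methylated. Read there too, ddm1 rdr2 had no methylated call among 283 at CHH cytosines, which allows up to 1.06%. The quadruple mutant had mean levels of 2.22% in CHH and 3.33% in CHG, with 4 of 438 and 2 of 275 calls methylated. So few methylated calls do not set it apart from ddm1 rdr2. The states defined by CHH or CHG without CG otherwise occurred in runs of at most 400 bp.

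Within a context the level depended strongly on the trinucleotide. Over the nucleus CAA and CTA had 8.41% and 8.98%, against 0.814% at CCT and 1.02% at CCC, so that CAA was 10.3 times as methylated as CCT. CAA and CTA made up 25.5% of the analysed CHH cytosines and 57.9% of the methylated CHH calls. Among CHG, CAG and CTG had 10.3% and 10.4% and CCG had 8.12%. Among CG, CGA had 32.995%, CGC 32.4%, CGG 31.5% and CGT 24.99%. The ratio of CAA to CCT was 9.02 to 11.3 on the 5 chromosomes taken singly, and CGA exceeded CGT by 6.78 to 9.17 points on each.

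The order among CHH sequences was also found in bins of one state, while that among CHG sequences depended on the state and that among CG sequences was narrower. In bins methylated in all 3 contexts CAA had 36.9% and CTA 36.7%, followed by CTC with 13.9%, CTT with 12.0%, CAC with 10.1%, CAT with 9.51%, CCA with 8.56%, CCC with 4.07% and CCT with 3.51%. CGA exceeded CGT by 3.58 points there, against 8.00 over the nucleus, and CGG was the highest CG sequence at 83.9%. Sequences with C at the second position were the lowest of the 9 CHH trinucleotides. On the arms such bins were higher in every CHH trinucleotide, with 40.7% at CAA and 6.46% at CCT, against 35.4% and 2.39% in the pericentromere. The ratio of CAA to CCT was accordingly 6.30 on the arms and 14.8 in the pericentromere. With calls pooled the levels were 42.5% and 3.86% on the arms and 36.7% and 2.10% in the pericentromere, so the size of this contrast depended on the weighting. CCT in unmethylated bins had 0.0722%, close to its chloroplast share of 0.0706%.

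CCG, in which the second C belongs to a CG, went a way of its own among CHG sequences. In bins methylated in all 3 contexts it had 36.0% against 51.7% at CAG and 52.4% at CTG, and on the arms 41.2% against 56.1% and 56.9%. In CG only bins the order was the reverse, with 2.42% at CCG, 0.792% at CAG and 0.829% at CTG. On the arms alone these were 0.953%, 0.361% and 0.382%. In unmethylated bins the 3 were alike, at 0.121%, 0.121% and 0.127%. CCG levels went with the level of the CG inside the same trinucleotide: 607309 CCG with an inner CG under 20% had 0.110%, and 252745 with an inner CG of 80% or more had 24.1%. Within bins methylated in all 3 contexts the step was smaller, from 19.5% to 38.9%, over 655 and 103498 CCG. Of 7556 CCG at 80% or more, 67 had an inner CG under 20%. In CG only bins of the arms the step was from 0.0853% to 1.82% at an inner CG of 20% to 40%, with 1.10% at 80% or more, so it did not grow with the inner CG there.

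The base on either side of a CG dyad also went with its level. In CG only bins the sequence ACGT had the lowest level, 38.8%, with 48.4% of its cytosines under 20%, and CCGA the highest, 71.3%, with 14.1% under 20%. The 3 other sequences ending in CGT had 52.4% to 57.3%. In bins methylated in all 3 contexts ACGT was again the lowest, at 75.5%, and CCGG the highest, at 85.2%, but only 2.08% of ACGT cytosines were under 20%. The contrast between flanks was thus larger in CG only bins, and there it went with the share of CG left unmethylated. The unmethylated dyad of the CG only sequence above is such an ACGT.

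The satellite windows had another order of CG trinucleotides. CGA had 59.1% there, below CGT with 69.8%, CGC with 82.5% and CGG with 82.7%, whereas CGA was the highest of the 4 over the whole nucleus. CGA was the most frequent, with 46504 of 115742 analysed satellite CG cytosines. Copies of a repeat share their sequence, so a trinucleotide stands there for a few positions of the repeat, and position and trinucleotide cannot be told apart.

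Among cytosines whose preceding base the files fix, levels differed more with that base at CTG than at CAG. In bins methylated in all 3 contexts TCTG had 66.8% and ACTG 62.3%, against 53.7% at CCTG and 35.1% at GCTG. For CAG the 4 sequences lay from 51.0% at GCAG to 59.7% at ACAG. For CTA they ran from 30.05% at GCTA to 48.6% at TCTA, and for CAA from 35.9% at GCAA to 45.7% at TCAA. G went with the lowest level at CTG and CTA also against the cytosines whose preceding base, A or T, is not fixed, which had 53.5% and 32.7%. At CAG and CAA the unfixed cytosines had 48.2% and 32.6%, below GCAG and GCAA, so the values for A and T above are those of a subset with higher levels and no order of the 4 bases is given there.

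The order of trinucleotides was nearly the same in the other libraries, each read alone at its own cytosines with at least 4 calls. CTA and CAA were first and second and CCT last of the CHH sequences in all 4 libraries, CCG was last of the CHG and CGT last of the CG sequences. In ddm1 rdr2, whose mean levels were 11.9% CG, 2.48% CHG and 1.43% CHH, CAA had 3.30% and CCT 0.262%. CTC and CTT were the only CHH pair whose order differed, with CTC higher in wild type and ccr4a ccr4b and CTT higher in both libraries with ddm1 rdr2. The hierarchy of sequences was thus present at levels well under those of wild type.

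CG reads the same way on both strands, and CAG on one strand faces CTG on the other, so each has a partner. Of 3030669 CG dyads, 1958512 had at least 4 calls on each strand. Their levels had a Pearson r of 0.960 across dyads, which share library and neighbourhood, and the strand means were 31.0% and 31.0%. Both strands were under 20% in 61.3% of dyads and at 80% or more in 16.5%. One strand under 20% facing one at 80% or more was seen in 0.0889%, and in 0.00468% of the 983174 dyads with at least 20 calls on each strand. Apparent hemimethylation was thus found mainly where a strand had few calls.

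CAG/CTG pairs were almost as symmetric. Across 1647494 pairs r was 0.921, and both members were under 20% in 79.9% and from 20% to 80% in 13.1%. Within bins methylated in all 3 contexts r was 0.818 for CAG/CTG pairs and 0.364 for CG dyads with at least 20 calls on each strand. The CG levels there occupied a narrow range, and their mean absolute difference between strands, 8.86 points, was smaller than that of CAG/CTG pairs, 10.7 points. Where CHG levels were intermediate they were therefore mostly shared by both strands of a site. The mean of CAG minus its facing CTG was -0.692 points over these bins and -0.166 points over the nucleus, so CTG was slightly the higher.

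**Figure D4:**
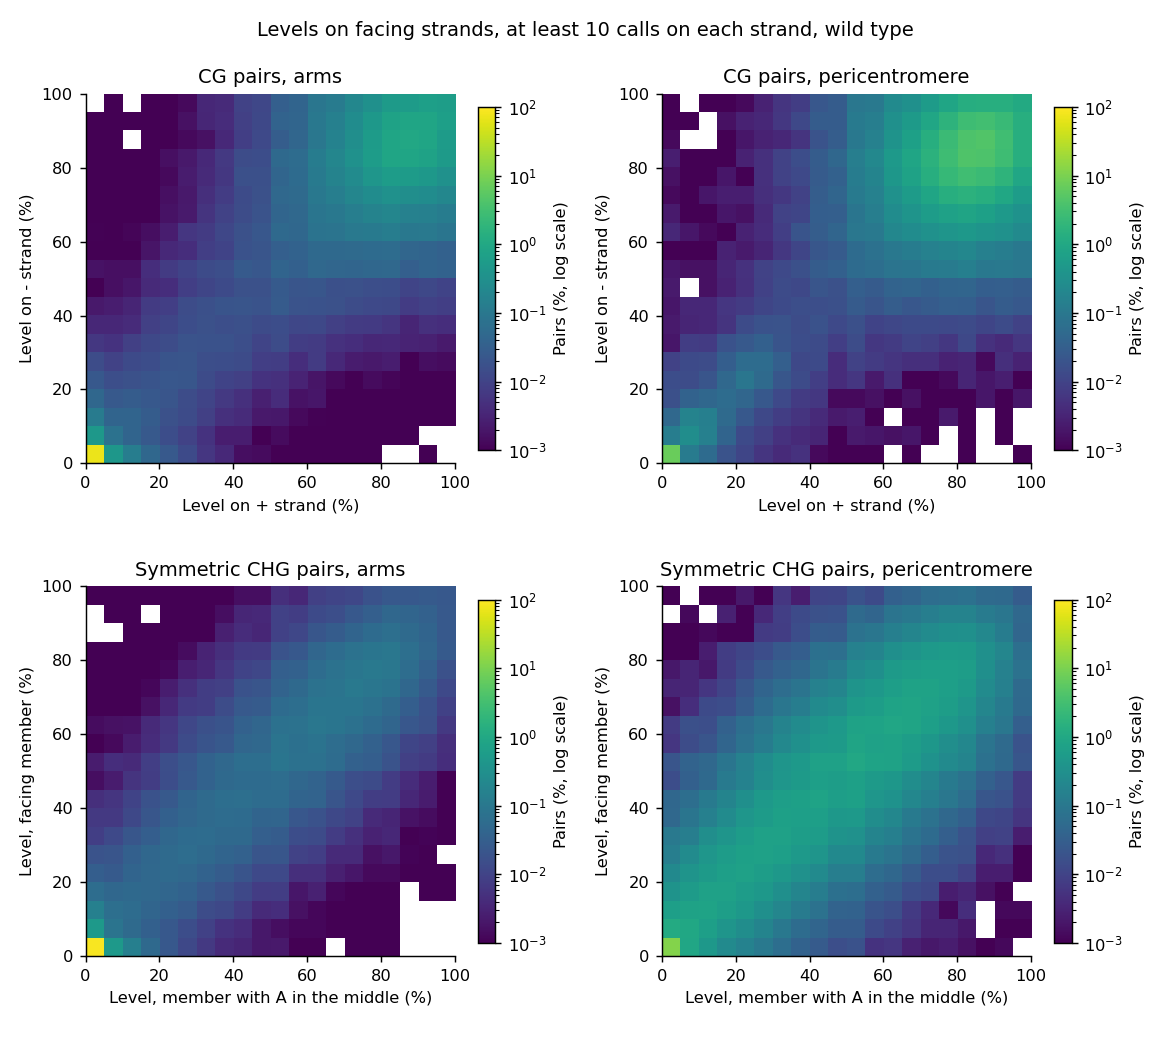
Percentage of pairs (colour, log scale) by the level on one strand (x, %) and on the facing strand (y, %), in steps of 5 points, for CG and for symmetric CHG pairs in arms and pericentromere, at pairs with at least 10 calls on each strand. CG dyads gather at both low and both high levels, while symmetric CHG pairs of the pericentromere form a band along the diagonal.

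A two-sided Fisher exact test per pair, with Benjamini-Hochberg adjustment over all nuclear pairs and calls at an adjusted p below 0.01 and only for differences of 40 points or more, found 618 CG dyads, or 0.0316% of those tested. It found 288 CAG/CTG pairs, 0.0175%. Of the CG dyads 310 were higher on the + strand and 308 on the - strand, and of the CAG/CTG pairs 122 were higher at CAG and 166 at CTG. The pericentromere had a larger share of called CG dyads, 0.0795%, than the arms, 0.0171%, and a higher depth. Both strands were under 20%, where no difference of 40 points can arise, in 10.2% and 75.5% of their dyads. The shares of called dyads thus rest on unlike bases. In simulated data the test recovered 87.5% of CG dyads and 92.5% of CAG/CTG pairs made to differ by 70 points, among 200 of each kind. Recovery at smaller differences, down to the 40 points of the rule, was not tested. Nor was recovery by depth, so these shares are not the general sensitivity of the test. Without cytosines over 3 times the median depth 51 and 26 pairs were called. This limit also removes the pairs in which the test has most power. Of the 502789 CG dyads with at least 40 calls on each strand, 0.0457% were called, so deep dyads were common and few were asymmetric.

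Unequal depth on the strands was more frequent among the called pairs, though most called pairs did not have it. One strand was over 3 times deeper than the other in 17.2% of the called CG dyads and in 2.31% of all dyads. For CAG/CTG pairs these shares were 6.94% and 2.40%. The median ratio of the strand depths was 1.47 in called and 1.3 in all CG dyads, but 1.25 and 1.32 for CAG/CTG pairs. The called CG dyad with the most calls and higher on the + strand lay at Chr4:84988-84989, with 76 of 91 calls methylated on + and 1166 of 5343 on -, 83.5% against 21.8% (adjusted p = 2.12e-30, Fisher's exact test). Its counterpart higher on the - strand, Chr4:42577-42578, had 6.04% of 1673 calls methylated on + and 72.2% of 18 on -. The CAG/CTG pair higher at CAG with the most calls, Chr3:16412396-16412398, had 142 of 465 methylated at CTG on + and 73 of 99 at CAG on -. The one higher at CTG, Chr2:3376527-3376529, had 53 of 76 at CTG on + and 118 of 887 at CAG on -. In all 4, chosen for having the most calls, the more methylated strand was the shallower one by over 4 times. The part of read placement in them was not tested.

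Part of the asymmetry was found again in another library. Of the 618 called CG dyads, 545 had at least 4 calls on each strand in ccr4a ccr4b, and 411 of them differed in the same direction there, 187 by at least 40 points. Their mean difference was 57.1 points in wild type and 28.2 points in ccr4a ccr4b, the first being the value that chose them. For CAG/CTG pairs 169 of 258 had the same direction, with means of 51.6 and 13.6 points. In ddm1 rdr2, a library with a mean CG level of 11.9% over the nucleus, the mean difference at the CG dyads was 3.39 points. Wild type and ccr4a ccr4b differ in genotype, so these are not replicates.

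Levels of neighbouring cytosines were correlated over distance in a wave. In CG only bins outside the arrays, the r of CG levels on the same strand, averaged over 11 distances, was 0.4997 around 10 bp, -0.0321 at 99 bp, 0.123 at 169 bp and 0.0629 at 352 bp. For CAG and CTG in bins methylated in all 3 contexts it was 0.295 around 10 bp, 0.0574 at 99 bp, 0.196 at 174 bp and 0.151 at 349 bp. For CAA and CTA it was 0.352, 0.107 at 87 bp, 0.174 at 175 bp and 0.143 at 342 bp. The sets held 67029 to 277336 cytosine pairs at these distances, at cytosines with at least 10 calls. The values past 10 bp were the smallest r from 60 to 140 bp and the largest from 140 to 220 bp and from 300 to 390 bp. Such extremes exist in any curve. The smallest r from 220 to 300 bp was 0.00397 at 254 bp for CG and 0.0387 at 242 bp for CAG and CTG. For CAA and CTA it was 0.0812 at 267 bp. In all 3 sets r was thus higher at both highs, from 169 to 175 bp and from 342 to 352 bp, than at both lows. The correlations at these distances were weak. Pairs at one distance share reads, bins and base composition, and the satellite, whose copies are 178 bp long, was left out with the whole array span.

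**Figure D5:**
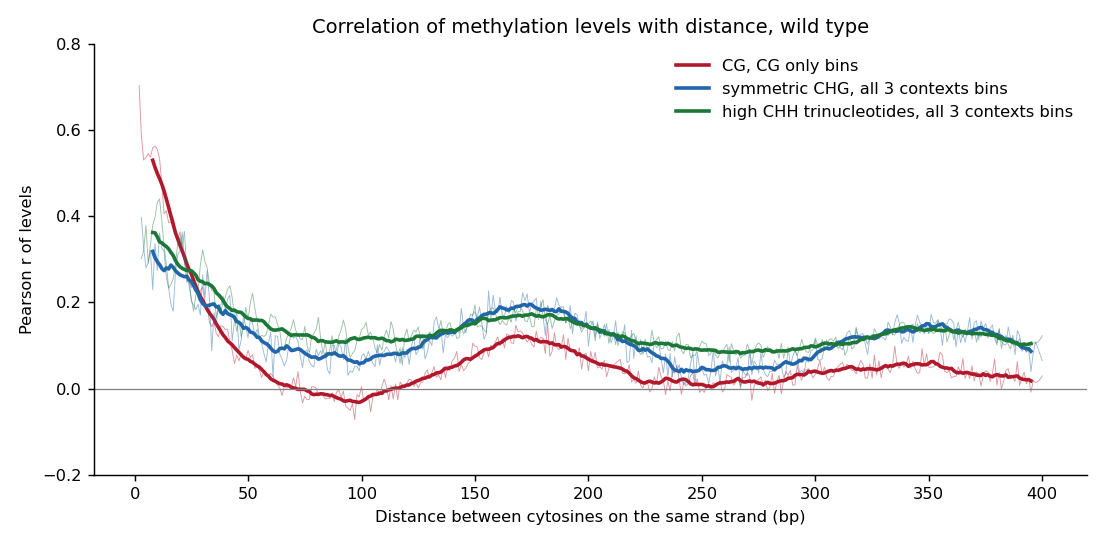
Pearson r between the levels of cytosines on the same strand (y) by their distance in bp (x), for CG in CG only bins, symmetric CHG and the CHH trinucleotides of highest level in bins methylated in all 3 contexts; thin lines are single distances and thick lines are means over 11 distances. Each line has lows near 90 to 100 bp and highs near 170 bp and 350 bp.

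The wild-type states were then read in the other libraries, at bins assessed in both and with no test between single libraries. In ccr4a ccr4b 96.6% of the unmethylated bins, 81.8% of the CG only bins, 70.1% of the CG and CHG bins and 59.0% of the bins methylated in all 3 contexts had the same state. In the last group the mean CHH level was 17.1% in wild type and 13.0% in ccr4a ccr4b, next to CHG levels of 47.8% and 46.8%. The bins were chosen by their wild-type values, and the part of that choice in these shares was not tested. In ddm1 rdr2 97.3% of unmethylated and 71.9% of CG only bins had the same state, against 4.94% of CG and CHG bins and 4.11% of those methylated in all 3 contexts. In the quadruple mutant these shares were 97.5%, 72.2%, 5.36% and 2.84%. In each of the 3 other libraries taken singly, most CG only bins of wild type therefore had the same state. The share with this state in all 3 at once was not computed. The mean CG level of the CG only bins was lower in each library. The ccr4a ccr4b library had 58.4%, where wild type had 62.6%. For ddm1 rdr2 the means were 45.7% against 62.8%, and for the quadruple mutant 46.3% against 63.0%. Unmethylated were 13.7%, 25.9% and 26.1% of these bins, in the same order. The part of the choice by wild-type values in these drops was not tested. Bins with CHG had mostly lost their state in both libraries with ddm1 rdr2.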

How the data were processed

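The deposited values are counts of methylated and unmethylated calls for each cytosine, strand and trinucleotide, made by the authors with Bismark 0.22.3 per the submitters' processing notes. The build ColCEN is known from the names of the deposited tables. The handling of duplicates and of reads with several places is not given in the sources used here. Covered cytosines had at least 3 calls, and none had 1 or 2, so a minimum of 1 call acts as one of 3.

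From these counts, the methylated share was taken as the level of every cytosine with 4 or more calls, and means weight cytosines equally. Libraries started from 100 ng of DNA and had 13 cycles of PCR, per the labels' protocols. Satellite windows are 10 kb windows in which at least 50% of cytosines recur at 178 bp, and the array span runs from the first to the last of the central block. Tests were binomial (against the chloroplast) and Fisher's exact, with Benjamini-Hochberg adjustment, in Python 3.11.15 with numpy 2.4.6, scipy 1.17.1 and numba 0.67.0. Both were tested on simulated data. Alternatives were other call minimums, a depth limit, no satellites, pooled calls, other thresholds, bin and window sizes. Named regions were the longest run of each state outside the array spans, the highest and lowest 100 kb window per chromosome and the deepest asymmetric pairs. The measures, regions and rules were chosen with earlier results of these data known. Without an annotation of ColCEN, gene and transposon overlaps are not analysed here.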

Additional observations from a re-analysis of the deposited data

Results flagged for a closer look

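The mitochondrial genome, which entered no comparison above, had methylated shares of 10.7% in CG, 4.90% in CHG and 1.32% in CHH in wild type, over 5810840 calls. These were above the chloroplast shares of the same library, 0.0861%, 0.0918% and 0.0782%. In ccr4a ccr4b the mitochondrial shares were 11.4%, 5.59% and 1.07%, in ddm1 rdr2 0.299%, 0.225% and 0.168%, and in ccr4a ccr4b ddm1 rdr2 0.248%, 0.173% and 0.108%. The cause was not tested.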

How the results depend on the processing

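Mean CG, CHG and CHH levels were 29.99%, 9.66% and 3.67% at a minimum of 1 call, 32.5%, 11.2% and 4.05% at 10 calls, 27.3%, 7.57% and 3.26% without cytosines over 3 times the median calls, 29.3%, 9.65% and 3.49% without satellite windows, and 36.6%, 14.8% and 5.03% with calls pooled. Without the deep cytosines 565327 CHG and 1588030 CHH cytosines were called methylated, and 51 CG dyads and 26 CAG/CTG pairs asymmetric. At 60 points 238 and 61 were asymmetric. At 10 calls 153465 bins were unmethylated, 54.6% of those assessed. With looser thresholds 9358 bins were CG and CHG, and with stricter ones 43062 were CG and CHG and 27743 all 3 contexts. Of 400 bp bins, 137184 were unmethylated, 43761 CG only, 17512 CG and CHG and 35764 all 3 contexts, which as shares is 57.9%, 18.5%, 7.40% and 15.1%. The bins with CHG or CHH methylated that had CG methylated too were 98.0% to 99.6% under every alternative. Pericentromeric CG, CHG and CHH were 72.1%, 36.6% and 11.1% with calls pooled, 76.3%, 38.0% and 11.3% within 1 Mb and 63.9%, 29.9% and 9.33% within 3 Mb. Arms had 22.9%, 6.31% and 2.30%, then 23.6%, 6.41% and 2.46%, then 16.4%, 2.61% and 1.17%. All 40 alternatives of single trinucleotide levels moved by more than their counting interval, 17 up and 23 down, and CAA was 8.97 to 14.6 times CCT. The other counts of methylated cytosines and of asymmetric pairs were within 1.5 times. The intervals are narrow because calls are many, and the changes follow which cytosines enter or how they are weighted. No paired analysis was possible because each genotype had 1 library. Depth limits AT-rich and satellite sequence most.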
